A study of Mus musculus with 10 samples.

Results

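Of 11923 genomic regions bound by p65 in at least 1 of 4 groups of mouse T cells, 863 (7.24%, 95% Wilson interval 6.79 to 7.72) had their strongest summit more than 50 kb outside every protein-coding gene. These 863 far regions were chosen by the position of that summit. Overlapping entries were merged within each of the authors' 4 peak lists, the lists were merged where they overlapped by at least 1 bp, and the summit of the entry with the highest fold enrichment placed each region. Far means far from protein-coding genes: 289 of the 863 regions lay inside or within 1 kb of a gene of another type. The study mapped p65 by ChIP-seq, the sequencing of DNA precipitated with the protein, using T cells that C57BL/6 mice supplied from spleen and lymph nodes. The cells were conventional (Tconv) or regulatory (Treg) and either unstimulated or stimulated for 3 h with plate-bound anti-CD3 plus soluble anti-CD28. Each of the 4 groups had 2 libraries, and 2 further libraries held input chromatin mixed from both cell types and both states. Treg were cultured with IL-2 at 10 ng/ml and Tconv at 2 ng/ml, so cell type and IL-2 dose cannot be told apart in the stimulated groups, and how unstimulated cells were kept was not given. Because the authors made 1 peak list per group from both libraries, no value has a spread between replicates, and library depth is unknown. Intervals cover counting error; the regions are not replicates, and neighbours are not independent.

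p65 (RelA) is the transactivating subunit of the NF-kB transcription factor most often found as a dimer with p50. Inhibitor proteins hold it in the cytoplasm of resting T cells, and signals from the T cell receptor and CD28 release it to the nucleus, where it binds kB sites, often near sites of other activation-induced factors such as AP-1. Regulatory elements can lie far from the genes they act on and can skip nearer ones, so a flanking gene is named here for its position and not as a target. NF-kB subunits are known to act in the development of Treg and in the upkeep of their identity.

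Where a far region overlapped the start of a long non-coding RNA gene, its sequence can be shown. Of the far regions, 39 overlapped a RefSeq promoter window (GRCm38.p6, the coordinates of mm10, from 250 bases before to 50 bases after a gene start). The 41 genes concerned were all long non-coding RNA genes. In 20 of the 39 regions the summit itself fell in a window. The 5 windows below were picked after their values were seen, to show starts bound in Treg alone, in both stimulated lists and in all 4 lists. How often windows held a motif match cannot be read from these 5 and is given further below. Capitals mark matches, on either strand, to a kB motif (GGGNNTTCC, or the same with 1 more N in the middle) or to the AP-1 motif TGANTCA.
LOC108169147: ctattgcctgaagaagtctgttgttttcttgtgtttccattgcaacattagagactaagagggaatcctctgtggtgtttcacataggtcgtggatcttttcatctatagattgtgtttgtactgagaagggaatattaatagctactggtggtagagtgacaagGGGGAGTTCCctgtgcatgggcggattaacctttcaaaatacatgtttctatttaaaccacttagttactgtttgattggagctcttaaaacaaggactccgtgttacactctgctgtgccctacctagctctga
Gm31718: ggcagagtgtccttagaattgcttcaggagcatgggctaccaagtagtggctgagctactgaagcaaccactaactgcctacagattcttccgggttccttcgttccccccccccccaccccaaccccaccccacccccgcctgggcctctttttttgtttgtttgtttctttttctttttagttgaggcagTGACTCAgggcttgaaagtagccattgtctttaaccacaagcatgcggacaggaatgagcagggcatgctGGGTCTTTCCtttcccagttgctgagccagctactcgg
Morrbid: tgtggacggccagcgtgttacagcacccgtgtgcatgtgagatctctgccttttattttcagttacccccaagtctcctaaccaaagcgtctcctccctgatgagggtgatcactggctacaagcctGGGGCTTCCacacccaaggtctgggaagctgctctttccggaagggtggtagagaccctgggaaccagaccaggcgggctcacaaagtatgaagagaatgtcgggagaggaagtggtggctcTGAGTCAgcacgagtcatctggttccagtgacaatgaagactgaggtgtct
Mirt1: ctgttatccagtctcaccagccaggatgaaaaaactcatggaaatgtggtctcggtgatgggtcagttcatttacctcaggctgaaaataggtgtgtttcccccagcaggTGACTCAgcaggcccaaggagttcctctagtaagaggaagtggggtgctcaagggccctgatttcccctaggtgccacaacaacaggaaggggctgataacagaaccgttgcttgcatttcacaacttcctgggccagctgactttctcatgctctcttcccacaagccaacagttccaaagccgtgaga
Lncpint: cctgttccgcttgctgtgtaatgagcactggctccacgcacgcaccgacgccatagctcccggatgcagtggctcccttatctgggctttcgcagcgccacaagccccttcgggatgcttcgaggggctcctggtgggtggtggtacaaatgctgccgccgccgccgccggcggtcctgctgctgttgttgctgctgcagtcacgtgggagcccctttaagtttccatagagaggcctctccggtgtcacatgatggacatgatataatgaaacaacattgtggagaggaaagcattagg
The LOC108169147 window (chr6:65525085-65525384, plus strand) held the summit of a region found in stimulated Treg alone at 38.6-fold, 67.0 kb from Qrfprl and 65.3 kb from Tnip3, a partner of the NF-kB inhibitor A20. Its capitals are 2 overlapping kB matches. The Gm31718 window (chr8:126853199-126853498, minus strand) lay in a region of both stimulated lists (39.8-fold in Treg, 28.8-fold in Tconv), whose summit fell outside the window. It held 1 AP-1 match and 1 kB match. The Morrbid window (chr2:128429302-128429601, minus strand) held a summit of both stimulated lists (12.0-fold in Treg, 9.04-fold in Tconv). That summit lay 161.9 kb from Spdye4c and 266.8 kb from Bcl2l11, the gene of the pro-apoptotic protein BIM. Morrbid is known to repress Bcl2l11 in short-lived myeloid cells. The Morrbid window held 1 kB match and 1 AP-1 match. The Mirt1 window (chr19:53464747-53465046, minus strand), between Smndc1 and Dusp5, held a summit of both stimulated lists (23.1-fold in Treg, 21.0-fold in Tconv) and 1 AP-1 match. The Lncpint window (chr6:31218425-31218724, minus strand) held the summit of a region of all 4 lists and no match. Its folds were 7.78 (Tconv) and 9.59 (Treg) without stimulation, and 10.4 (Tconv) and 23.0 (Treg) with it.

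Over the windows that held the summit of a far region, 7 of 23 (30.4%, 15.6 to 50.9) had an AP-1 match, against 7.81% of all 32851 promoter windows and 3.75% of the 3491 windows that held the summit of another p65 region. A kB match stood in 3 of the 23 (13.0%, 4.54 to 32.1), against 9.74% of all windows and 14.5% of the windows with another summit. The AP-1 share was thus above that of both comparison sets by more than its counting interval, and the kB share was not. The 23 windows all stood at long non-coding RNA genes, while the comparison sets were not limited to such genes. Far position and gene type therefore cannot be told apart here. The 23 windows belonged to 21 genes and 20 regions, and some overlapped. They are not independent, so the interval understates the uncertainty. A match is a description of letters, not a site.

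MicroRNA genes stood near some far regions, with 13 hairpins within 20 kb of a summit. The hairpins of the miR-17 to miR-92a cluster, known for promoting lymphocyte growth and survival, lay 4.03 to 4.78 kb from the summit of a region of all 4 lists (chr14:115039093-115042841, between Slitrk5 and Gpc5). That region had folds of 6.65 and 8.30 in unstimulated Tconv and Treg and of 7.36 and 11.4 in stimulated Tconv and Treg. The hairpin of miR-146a, a known NF-kB-induced brake on NF-kB signalling, lay 15.46 kb from a region of stimulated Treg alone (9.76-fold, between Atp10b and Pttg1). Their mature sequences, with the seed (bases 2 to 8) in capitals, show 2 seeds that are each shared by 2 members of the cluster.
mmu-miR-17-5p: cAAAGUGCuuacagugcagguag
mmu-miR-20a-5p: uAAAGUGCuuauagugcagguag
mmu-miR-19a-3p: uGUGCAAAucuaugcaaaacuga
mmu-miR-19b-3p: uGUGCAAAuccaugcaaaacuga
mmu-miR-18a-5p: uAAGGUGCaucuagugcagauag
mmu-miR-92a-3p: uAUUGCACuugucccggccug
mmu-miR-146a-5p: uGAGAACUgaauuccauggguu
miR-17-5p and miR-20a-5p share AAAGUGC, and miR-19a-3p and miR-19b-3p share GUGCAAA. The other 3 have seeds of their own. No expression was measured, so these are neighbours by position.

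Nearly all far regions were found in stimulated cells, and most of them in stimulated Treg alone. The stimulated Treg list held 830 of the 863 (96.2%, 94.7 to 97.3; 91.4% of all 11923 regions), and the stimulated Tconv list held 356 (41.3%, 38 to 44.6; 47.7% of all). The unstimulated Treg list held 69 (8.0%, 6.37 to 10.0; 26.7% of all), and the unstimulated Tconv list held 64 (7.42%, 5.85 to 9.36; 24.7% of all). In either unstimulated list stood 89 far regions (10.3%), against 14.4% of the regions 1 to 50 kb outside a gene, 15.7% of those inside a gene and 58.1% of those within 1 kb of a gene end. The gap to the nearer regions outside genes was 4.08 percentage points (interval of the far minus nearer difference -6.46 to -1.48), and that to gene ends 47.7 points (-50.1 to -45.1).

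**Figure D1:**
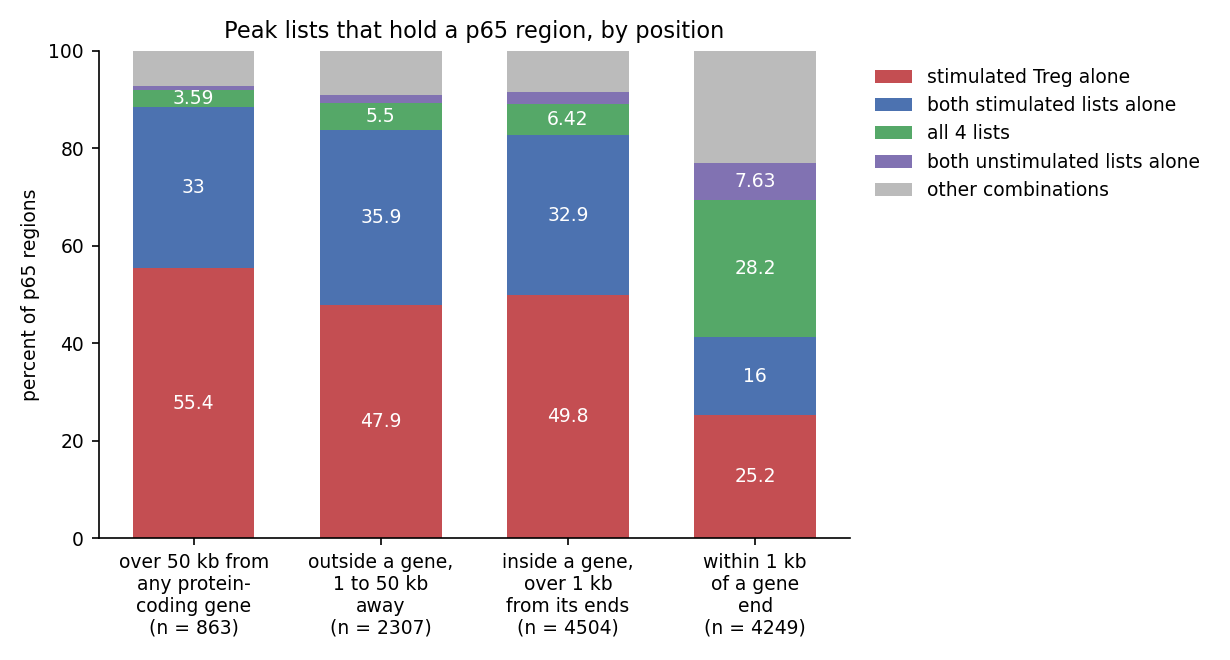
Percent of p65 regions (vertical axis) in each combination of the 4 peak lists, for far regions and for 3 classes of nearer regions, with the number of regions under each bar. Stimulated Treg alone makes up 55.4% of far regions and 25.2% of regions within 1 kb of a gene end, while regions of all 4 lists make up 3.59% and 28.2%.

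By combination of lists, 478 far regions (55.4%, 52.1 to 58.7) stood in stimulated Treg alone, against 41.1% of all regions. A further 285 (33.0%; 27.5% of all) stood in both stimulated lists and neither unstimulated one, and 31 (3.59%; 13.8% of all) stood in all 4. Both unstimulated lists alone held 7 (0.811%; 3.98% of all). The rest were 17 in both stimulated lists and unstimulated Treg, 10 in both stimulated lists and unstimulated Tconv, 11 in stimulated Tconv alone, 7 in unstimulated Tconv alone, 6 in unstimulated Treg alone, 6 in all but stimulated Tconv, and 5 in 3 other combinations. The Treg-alone share exceeded that of nearer regions outside genes (47.9%) by 7.49 points (3.58 to 11.4) and that of regions inside genes (49.8%) by 5.57 points (1.93 to 9.16).

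Within each cell type, far regions of the stimulated list rarely had an unstimulated counterpart. In Treg, 774 of 830 (93.3%, 91.3 to 94.8) had none, against 77.1% over the whole stimulated Treg list. In Tconv it was 313 of 356 (87.9%, 84.1 to 90.9), against 67.1% over the whole list. This was not particular to far regions. Regions 1 to 50 kb outside genes had 89.8% in Treg and 85.9% in Tconv, and gene ends had 52.0% and 40.0%. Far regions exceeded the former by 3.46 points in Treg (1.2 to 5.48) and by 1.97 points in Tconv (-2.29 to 5.67). In the other direction, 13 of 69 far unstimulated Treg regions had no stimulated counterpart (18.8%; 21.6% over the list), and 21 of 64 in Tconv (32.8%; 36.4% over the list), shares near those of the whole lists.

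Between the cell types, 487 of 830 far stimulated Treg regions had no stimulated Tconv counterpart (58.7%, 55.3 to 62.0), against 50% over the whole list. Conversely, 13 of 356 far stimulated Tconv regions had no Treg counterpart (3.65%; 4.19% over the list). Between the unstimulated lists, 25 of 69 far Treg regions lacked a Tconv counterpart (36.2%; 20.5% over the list), and 20 of 64 far Tconv regions lacked a Treg one (31.2%; 13.9% over the list). List length enters these shares. With every list held to its 2961 strongest regions, stimulated Treg alone fell to 31.9% of 367 far regions and the share in unstimulated Tconv rose to 17.4%. At that length 43.2% of far stimulated Treg regions still lacked a Tconv counterpart, 13.3 points (7.32 to 19.4) above the 29.9% of all other regions. Those other regions include gene ends, and the classes were not compared separately at that length.

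In the stimulated lists, far regions were about as strong as regions 1 to 50 kb outside genes, and as strong as their whole list or stronger. Their median fold enrichment, the authors' ratio of the summit over its local background, was 12.7 in stimulated Treg (95% interval of the median 11.8 to 13.2; 11.5 over the whole list) and 13.6 in stimulated Tconv (12.9 to 14.4; 12.9 over the whole list). In the unstimulated lists it was 6.43 in Tconv (5.54 to 7.39; 8.49 over the list) and 6.68 in Treg (6.14 to 7.14; 8.30 over the list). Ranked by fold, decile 1 (the strongest regions) and decile 2 of the stimulated Treg list were 9.72% and 10.3% far, against 7.62% overall. The share was lowest in decile 8 (5.50%) and was 7.99% and 8.45% in deciles 9 and 10, so far regions were more frequent at both ends of that list than in its middle. In the strongest decile of the unstimulated lists, 1 of 294 Tconv regions and 1 of 319 Treg regions was far. In the weakest decile, 18 of 294 and 15 of 318 were. Folds of different lists are not compared as levels.

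Absence from the stimulated Tconv list followed strength closely. Far regions of stimulated Treg alone had a median fold of 9.56 (3.98 to 47.1), and those of both stimulated lists alone had 18.8 (6.04 to 87.7). In a split added after the values were seen, 11.3% of far regions in the strongest decile of the stimulated Treg list lacked a Tconv counterpart, against 5.03% of regions inside genes or 1 to 50 kb outside them (difference 6.29 points, 1.26 to 13.8). In decile 2 it was 33.9% against 20.1% (13.9 points, 5.20 to 23.5), and in decile 9 96.6% against 86.6% (9.99 points, 3.29 to 13.7). In the other 7 deciles far regions were also higher, by 0.929 to 9.08 points, but each interval included 0.

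**Figure D2:**
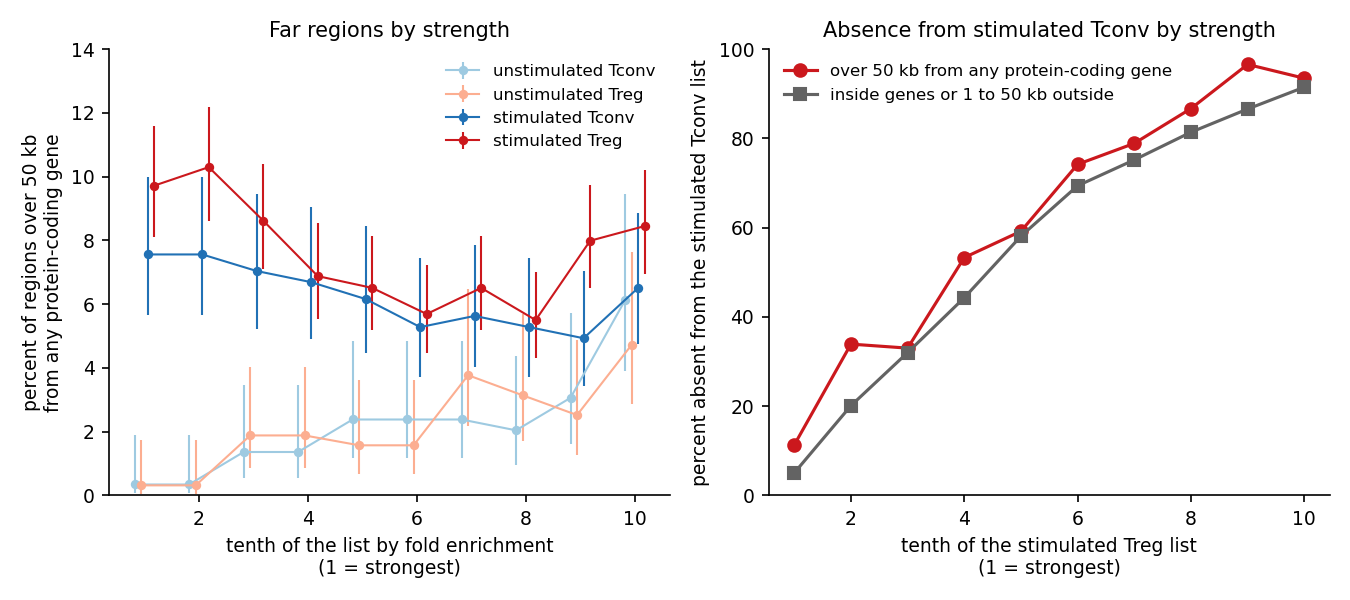
Left, percent of regions that are far (vertical axis, bars are 95% Wilson intervals) in each decile of each list, ranked by fold enrichment. Right, percent of stimulated Treg regions absent from the stimulated Tconv list by decile, for far regions and for regions inside genes or 1 to 50 kb outside them; the share rises from 11.3% to 93.5% in far regions and from 5.03% to 91.5% in the others.

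Stretches more than 50 kb from any of 21883 protein-coding genes covered 1020 Mb, or 37.7% of the 2700 Mb spanned. They held 0.848 p65 regions per Mb, against 6.56 per Mb in the rest, counting unsequenced stretches as part of both. The nearer gene lay at a median of 116 kb (50.1 to 1185.4) and the gene on the other side at a median of 316 kb (53.3 to 3682.9). At 50 to 100 kb from the nearer gene there were 376 regions, at 100 to 200 kb 284, at 200 to 500 kb 174 and beyond 500 kb 29. The share in stimulated Treg alone was 52.9% (47.9 to 57.9), 54.6%, 59.2% and 72.4% (54.3 to 85.3) in these classes, whose intervals overlap. The farthest region lay 1185.4 kb from Zeb2 and 2511.3 kb from Acvr2a, in stimulated Treg alone at 7.57-fold. Just inside the limit stood regions 50118 bp (Fer1l6 to Tmem65), 50339 bp (Otud7a to Klf13) and 50632 bp (Kdm7a to Slc37a3) from a gene, each in both stimulated lists alone, at 29.1, 21.4 and 27.9-fold in Treg. Just outside it stood regions at 49960 bp (Cabcoco1 to Tmem26, both stimulated lists alone), 49907 bp (Ado to Zfp365) and 49892 bp (Btg3 to D16Ertd472e), the last pair in stimulated Treg alone, at 13.5, 8.60 and 11.2-fold in Treg.

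Far regions came in groups. Another p65 region had its summit within 12500 bp of 480 far summits (55.6%, 52.3 to 58.9), against 63.8% of nearer regions outside genes, 63.7% inside genes and 27.6% at gene ends. The nearest summit was a median of 9.50 kb away, against 7.37, 6.56 and 33.6 kb in those classes. Runs of far regions with steps of at most 12500 bp formed 162 clusters with 472 regions (54.7%), of which 87 had 2 members, 58 had 3 or 4 and 17 had 5 or more. The remaining 391 regions stood alone. Clustered and lone regions were equally often in the stimulated Tconv list (41.3% and 41.2%), and their median folds in stimulated Treg were 13.7 and 11.3. In 88 clusters (54.3%), regions with and without a stimulated Tconv counterpart stood side by side.

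The cluster with the most members, 10 regions over 46.5 kb, lay between Irf2bp2, a transcriptional co-repressor, and Tomm20, a subunit of the mitochondrial import receptor (chr8:126821180-126868532). All 10 were in stimulated Treg, at 7.54 to 47.3-fold, 9 were in stimulated Tconv and 3 in unstimulated Treg. A cluster of 9 over 40.1 kb stood between 4933412E24Rik and Lratd2 (chr15:60100631-60142361), with 5 of the 9 in stimulated Tconv. Another 9 over 34.2 kb stood 148.6 kb from Ets1, a transcription factor of T cell development (chr9:32905785-32942075), with 3 in stimulated Tconv. The cluster of 7 before Tbl1xr1, a co-repressor component, had 4 in stimulated Tconv. Next in size were 4 clusters of 6, each wholly in stimulated Treg. One lay inside Morrbid (chr2:128363829-128393104), with 2 of its 6 in stimulated Tconv, and one before Gata3 (chr2:9664581-9692534), also with 2. The cluster between Ccer1 and Atp2b1 (chr10:98776166-98799502) had 1 in stimulated Tconv. The cluster between Ptger4 and Dab2 (chr15:5756635-5777673) had none, at 11.5 to 47.1-fold in Treg.

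By gap, the stretch between neighbouring protein-coding genes, 297 of 2984 gaps long enough to hold a far region held one (9.95%). There were 138 gaps with 1 far region, 104 with 2 to 4, 37 with 5 to 9 and 18 with 10 or more. These 18 gaps held 225 far regions (26.1%). Gaps with a far region were longer, with a median of 351 kb against 233 kb over all 2984. Of the 299 gaps over 1000 kb, 44 held a far region and 255 held none. A stimulated Treg region stood in 283 of the 297 gaps, a stimulated Tconv region in 176 and an unstimulated one in 77. In 109 gaps there was a stimulated Treg region and no stimulated Tconv one, and in 2 gaps the reverse. List length enters both counts, since the stimulated Treg list held 830 far regions and the stimulated Tconv list 356. A gap with 1 far region, as in 138 cases, cannot hold separate regions of both lists. Whether the asymmetry remains with lists of equal length was not tested.

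**Figure D3:**
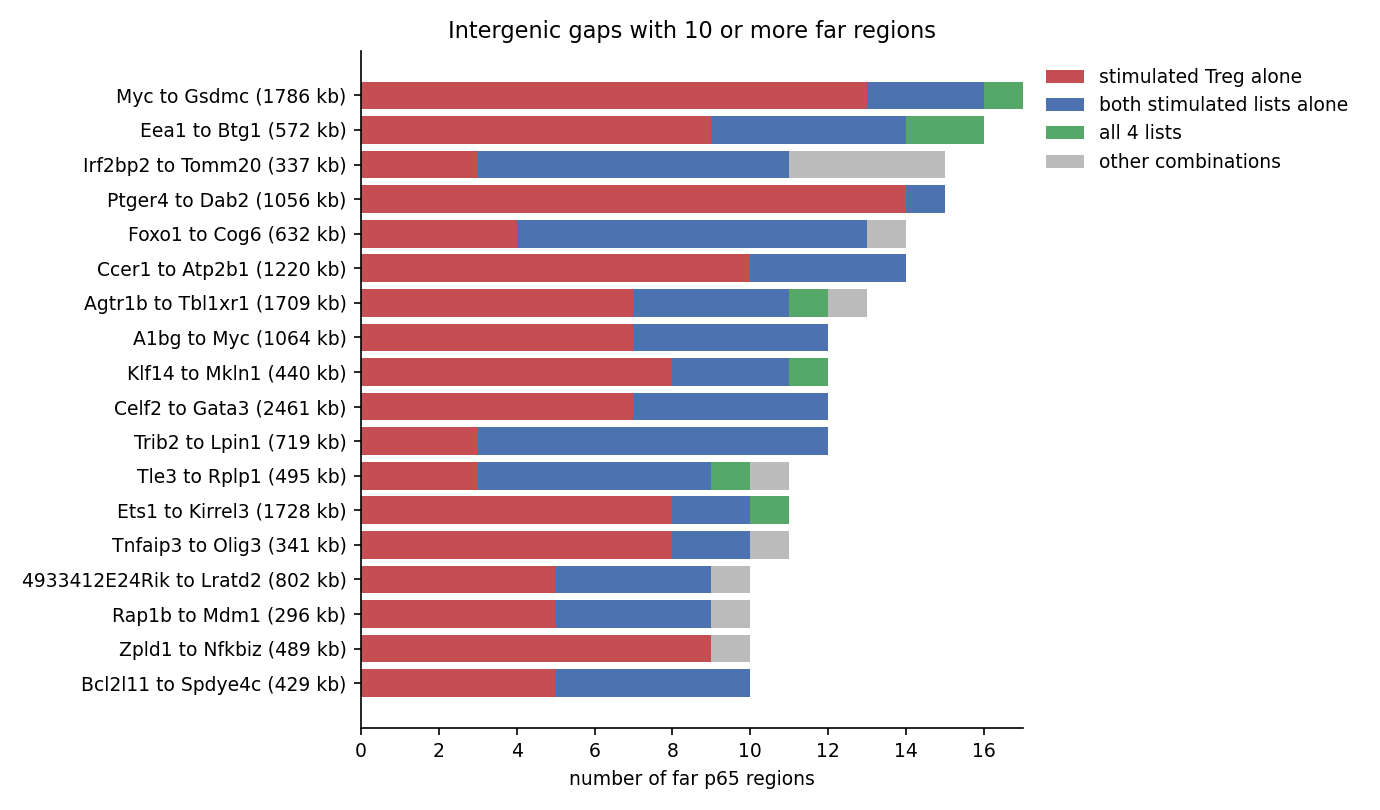
Number of far regions (horizontal axis) in the 18 gaps with 10 or more, stacked by the lists that hold them, with the flanking genes and the gap length in kb. Ptger4 to Dab2 and Zpld1 to Nfkbiz are almost entirely stimulated Treg alone, while 12 of the 15 regions of Irf2bp2 to Tomm20 are also in stimulated Tconv.

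The fullest gaps differed in their makeup. Between Myc and Gsdmc stood 17 far regions, 13 of them in stimulated Treg alone. Between Eea1 and Btg1, an anti-proliferative gene of resting lymphocytes, stood 16, with 7 in stimulated Tconv and 2 in all 4 lists. Irf2bp2 to Tomm20 held 15, with 12 in stimulated Tconv. Ptger4, the gene of a prostaglandin E2 receptor, and Dab2, that of an endocytic adaptor, flanked 15 in a 1055.6-kb gap, of which 14 were in stimulated Treg alone. Foxo1 to Cog6 held 14, with 10 in stimulated Tconv, and Ccer1 to Atp2b1 held 14, with 4.

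Of the 55 gaps with 5 or more far regions, 5 had none in stimulated Tconv. They were Zpld1 to Nfkbiz, Akr1e1 to Klf6, Gm5148 to Ankrd50, Ikzf2 to Spag16 and Zeb2 to Acvr2a. The converse, 4 or more far regions each found in stimulated Tconv, occurred in 3 gaps: Tgfbr2 to Rbms3, Lemd2 to Grm4 and Ccnd2 to Parp11. These gaps were picked after their values were seen, and list length enters both counts.

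Genes of T cell biology often flanked far regions, but the gene lists were chosen with earlier results of these data known. The shares of the lists are therefore a description and not a test. Of 4755 protein-coding genes at the edge of a gap that could hold a far region, 557 flanked one (11.7%, 10.8 to 12.7). Of the 92 such genes in 9 lists, 8 of T cell and NF-kB biology and 1 ribosomal control, 52 did (56.5%, 46.3 to 66.2). Their gaps held 261 far regions, 6.68 per Mb of far stretch against 0.848 overall. In stimulated Treg alone stood 59.0% of these 261 (52.9 to 64.8) and 53.8% of the other far regions. Flanking genes were also bound more closely: 362 of 557 (65%, 60.9 to 68.8) had a p65 region inside or within 50 kb, against 1334 of 4198 genes with an empty gap (31.8%, 30.4 to 33.2). At least 1 such flanking gene stood beside 806 far regions (93.4%), and neither flank was bound for 57.

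**Figure D4:**
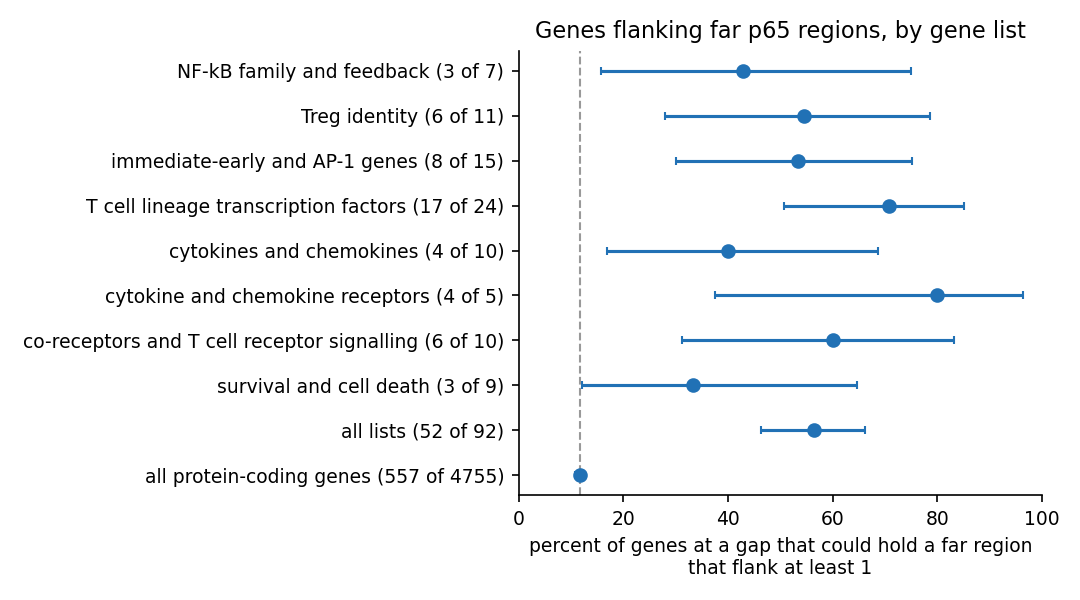
Percent of genes at the edge of a gap that could hold a far region that flank at least 1 (horizontal axis, points with 95% Wilson intervals), by gene list, with counts; the dashed line is the share over all protein-coding genes. The 8 lists shown, without the ribosomal control (1 of 1 gene), lie between 33.3% and 80%, against 11.7% overall. The lists were chosen with earlier results of these data known.

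In the NF-kB family and feedback list, 3 of 7 genes flanked far regions. Nfkbiz, which encodes the nuclear inhibitor IkB-zeta, had 10 in its gap to Zpld1, 9 of them in stimulated Treg alone and 1 in unstimulated Treg alone. The 9 ran from 37.1-fold at 285.2 kb from Nfkbiz (chr16:55525770-55527363) and 31.6-fold at 280.2 kb to 10.0-fold at 64.0 kb. The regions at 37.1 and 31.6-fold lay nearer to Zpld1, at 204.2 and 209.1 kb. The unstimulated one had 6.67-fold at 52.9 kb from Nfkbiz. None of the 10 was in stimulated Tconv, although 2 of the 4 regions inside or within 50 kb of Nfkbiz were. Tnfaip3, the gene of the NF-kB inhibitor A20, had 13, with 5 in stimulated Tconv and up to 32.3-fold in stimulated Treg (chr10:18917061-18918044). Tnip3 had 4, with 1 in stimulated Tconv.

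Treg identity genes flanked 22 far regions, 17 of them in stimulated Treg alone (6 of 11 genes). Of all 863 far regions, 55.4% were in stimulated Treg alone, and 22 regions are few for a comparison. Ikzf2, which encodes Helios, had 6, at 6.95, 34.4, 7.2, 18.6 and 22.0-fold on its Spag16 side (64.3 to 83.5 kb away) and at 10.6-fold on the other. All 6 were in stimulated Treg alone, and of the 21 regions inside or within 50 kb of Ikzf2, 21 were in stimulated Treg and 0 in stimulated Tconv. Icos, a co-stimulatory receptor, had 4, with 2 in stimulated Tconv, at up to 34.6-fold. Cd83 had 8, with 1 in stimulated Tconv and 2 in an unstimulated list. The nearest lay 61.5 kb from Cd83. The strongest in stimulated Treg (26.3-fold) lay 704.1 kb from Cd83 and 223.5 kb from Jarid2, at the other end of the gap. Nrp1 had 2 and Ctla4 had 1, in stimulated Treg alone at 8.94-fold or less and 9.30-fold. The single region beside Nt5e, the gene of CD73, stood in unstimulated Tconv alone. Foxp3 and Il2ra flanked no far region; 5 and 14 p65 regions lay inside or within 50 kb of them, the 5 at Foxp3 in stimulated Treg alone among the lists.

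Among immediate-early and AP-1 genes, 8 of 15 flanked 53 far regions, 36 of them in stimulated Treg alone (55.4% over all far regions). Myc, which encodes a driver of growth and proliferation, had 29, against 2 regions inside or within 50 kb of it. On the A1bg side 12 lay 307.6 to 576.5 kb away, with the strongest at 543.5 kb (70.1-fold in Treg, 44.5-fold in Tconv, chr15:61439698-61442327). That strongest region was nearer to A1bg, at 520.6 kb. So was a cluster of 4 that began 487.5 kb from A1bg and ended 565.4 kb from Myc. On the Gsdmc side, 5 regions lay in the long non-coding RNA gene Pvt1, 174.5 to 221.1 kb away. The strongest of them (chr15:62168034-62170639) had 66.8-fold in Treg and 53.1-fold in Tconv, and its neighbour was in all 4 lists (7.38, 6.80, 34.9 and 39.1-fold). Farther out, 10 regions stood 736.4 to 834.8 kb from Myc at 7.12 to 28.2-fold, and 1 of these 10 was in stimulated Tconv. Klf6, a zinc-finger factor, had 6, at 6.04 to 25.5-fold and each in stimulated Treg alone. The MAP kinase phosphatase genes Dusp4, Dusp5 and Dusp6 had 5, 4 and 3, with 1, 3 and 2 in stimulated Tconv. Ier5 had 3, Jun 2 and Egr2 1.

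**Figure D5:**
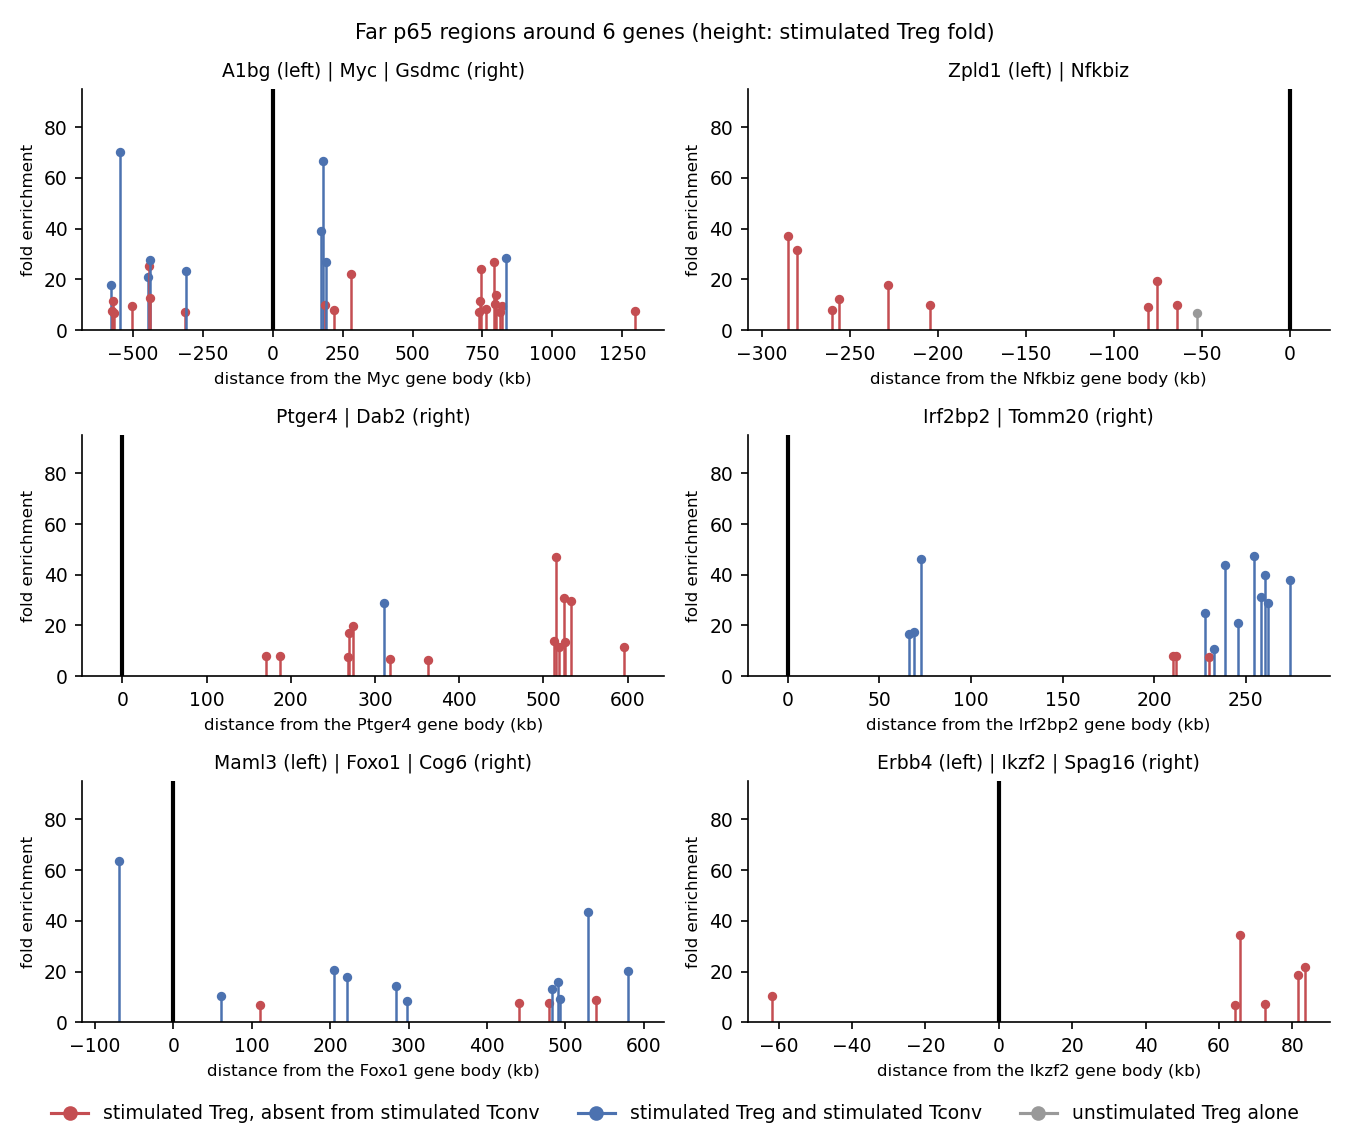
Far regions around 6 genes: horizontal axes give the distance in kb from the gene body (black line), vertical axes the fold enrichment in stimulated Treg, or in unstimulated Treg for the 1 grey point. Blue regions are also in stimulated Tconv; around Foxo1 and Irf2bp2 most are blue, around Nfkbiz and Ikzf2 none is.

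T cell lineage transcription factors flanked 98 far regions, the most of any list, and 17 of 24 such genes flanked at least 1. In stimulated Treg alone stood 50 of the 98, a share not above the 55.4% over all far regions. The far region with the highest fold stood 300 kb from Lef1, a factor of naive T cells, and 79.9 kb from Rpl34 (chr3:130809212-130810769). It had 87.7-fold in stimulated Treg and 52.4-fold in stimulated Tconv, and was in neither unstimulated list. Foxo1, a factor of T cell quiescence, had 15, with 11 in stimulated Tconv and up to 63.6-fold in Treg (46.4-fold in Tconv), 70.0 kb away on the Maml3 side. Gata3, the factor of type 2 helper cells, had 12 (5 in stimulated Tconv), all in a 2460.7-kb gap to Celf2 and 107.0 to 891.7 kb away. Ets1 had 11 (3), Satb1 10 (5), Bcl6 9 (7), Tox 6 (2), Id2 6 (4), Bcl11b 5 (1), Runx1 4 (2) and Myb 3 (3). Bach2, a repressor that favours Treg over effector fates, had 2, both in stimulated Tconv and in an unstimulated list, one of them at 59.5-fold in Treg and 44.8-fold in Tconv. Zeb2 had 5, each in stimulated Treg alone at 8.76-fold or less, 4 of them nearer to Acvr2a at the other end of the gap.

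Receptor genes flanked 17 far regions (4 of 5 genes). Tgfbr2, a receptor for TGF-beta, had 5 in its gap to Rbms3, and each was in both stimulated lists, at 11.4 to 22.5-fold in Treg and 9.01 to 15.1-fold in Tconv. Cxcr4, the receptor that retains cells in bone marrow and lymphoid tissue, had 6, with 2 in stimulated Tconv and up to 41.4-fold in Treg. S1pr1, the receptor for exit from lymph nodes, had 4, with 3 in stimulated Tconv. Cytokine genes flanked 9 (4 of 10 genes): Fasl 3, Tnfsf11 3, Ifng 2 and Csf1 1. Both regions beside Ifng, the stronger at 40.8-fold in Treg and 29.6-fold in Tconv, were in both stimulated lists.

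In T cell receptor signalling, 6 of 10 genes flanked 20 far regions. Cblb, an E3 ligase that limits activation, had 8, with 6 in stimulated Tconv. Rasgrp1, which activates Ras below the receptor, had 6, with 1. Survival genes flanked 15 (3 of 9 genes): Bcl2l11 10, Pim1 4 and Gadd45a 1. The 10 beside Bcl2l11 reached 28.6-fold in Treg, 5 were in stimulated Tconv, and 8 lay in Morrbid. The ribosomal control had 1 gene at such a gap, Rpl14, with 1 region of stimulated Treg alone at 10.7-fold, 202.1 kb away. Other ribosomal protein genes that flanked far regions, such as Rpl34, Rplp1 and Rps24, were not on the control list. With 1 gene the control gives no usable comparison.

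Besides the regions beside Lef1, Myc and Foxo1 described above, the 10 strongest far regions in stimulated Treg included those between Ube2e3 and Itga4, the gene of integrin alpha-4 (chr2:78979604-78981963; 76.3-fold, 28.3-fold in Tconv), and Cd47 and Bbx (chr16:49970234-49971487; 69.5-fold, 10.9-fold in Tconv). Rnf19a to Ankrd46 had 66.6-fold (45.7-fold in Tconv) and Vrk1 to Gm46320 60.9-fold (22.6-fold in Tconv). Each of the 10 strongest in stimulated Treg was also in stimulated Tconv, and 2 of the 10 were in all 4 lists. One lay between Il12a and 1110032F04Rik (chr3:68783395-68784978; 6.07 and 7.03-fold in unstimulated Tconv and Treg, 41.7 and 66.6-fold after stimulation). The other lay between Eea1 and Btg1 (chr10:96370539-96372036; 13.0, 16.0, 47.1 and 63.4-fold in the same order). Of the regions in stimulated Treg alone, the strongest stood 514.7 kb from Ptger4 (47.1-fold, chr15:5758185-5759346), then beside Tnip3 (38.6-fold). Others stood at 2210408F21Rik and Lncpint between Klf14 and Mkln1 (37.2 and 36.0-fold), and between Zpld1 and Nfkbiz (37.1-fold).

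In neither stimulated list stood 20 far regions. The strongest, between Bckdhb and Tent5a (chr9:84970191-84971342), had 17.9-fold in unstimulated Tconv and 13.3-fold in unstimulated Treg. The next stood between Cd83 and Jarid2 (10.2 and 10.3-fold). The others reached 8.86-fold. The region with the highest unstimulated folds was in all 4 lists, between Olfr1505 and Tle4 (chr19:14286552-14288032), at 34.4-fold (Tconv) and 25.6-fold (Treg) without stimulation and 20.1-fold (Tconv) and 14.9-fold (Treg) with it. It was the far region counted above in the strongest decile of each unstimulated list. In stimulated Tconv alone stood 11, at 6.84 to 12.9-fold, among them 1 beside each of Lef1, Dusp6 and Id2.

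Genes that do not encode proteins, with 1 kb added on each side, took up 13.3% of the far stretches but held 289 far summits (33.5%, 30.4 to 36.7). Long non-coding RNA genes accounted for 272 of them. Gm31718, between Irf2bp2 and Tomm20, had 12, Gm31813 9, Lncpint, a p53-induced transcript, 8, and Morrbid 8. Pvt1 had 5, Gm45968 between Zpld1 and Nfkbiz 5, each of these last in stimulated Treg alone, and Gm20139 between Tnfaip3 and Olig3 6. When genes of any type count, 140 regions remain more than 50 kb away.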

How the data were processed

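p65 ChIP-seq of 8 immunoprecipitated and 2 input libraries was deposited as 1 peak list per group. The immunoprecipitated libraries, 2 per group in 4 groups, were pooled by the authors into lists that the file names call conservative sets by irreproducible discovery rate with blacklisted regions removed. Per the submitters' processing notes, which give no role or order, MACS2 2.1.1.20160309, BWA 0.7.15-r1140 and Trim Galore 0.4.1 were used with the build mm10. The deposited fold enrichment (a ratio of summit over local background), −log10 p and score (10 times −log10 p) are the authors' values per peak and serve only to describe and rank peaks within a list. Nothing states that the libraries of a group came from separate animals or cultures, and no library depth was used.

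The members and gene lists were chosen with earlier results of these data known. Entries were merged within and then between lists (1 bp), each region was placed by the summit of its highest-fold entry, and distances were taken to RefSeq GRCm38.p6 gene bodies. A counterpart is membership of the merged region in the other list. Shares carry Wilson intervals and differences Newcombe intervals (95%); no test across regions was run, because each group has 1 list. Gene lists (251 genes) were matched by symbol. Unsequenced stretches were not subtracted from gap lengths. Python 3.11.15, numpy 2.4.6, pandas 2.3.3, scipy 1.17.1 and matplotlib 3.10.9 were used. The assignment was tested on simulated data (1000 of 1000 positions and flanks recovered) and on 300 real regions by an independent search (0 disagreements).

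Regions were selected for naming by rule. The rules took the 10 strongest in stimulated Treg and the 5 strongest in stimulated Tconv and per combination. They also took the 6 fullest gaps and the 5 clusters with most members (8 with the ties at 6 members). The 3 on each side of the limit, the 5 farthest, and up to 4 per gene list were added. Not every region so selected is named in the text. Other list genes, the gaps without or wholly with Tconv regions, the promoter windows and the microRNAs were named after their values were seen. The planned motif search at summits was replaced by one in RefSeq promoter windows, since no genome was used here. Alternatives were another distance limit, all gene types, a 50% overlap, midpoints, a common −log10 p limit, equal list lengths and other cluster distances. Peak lists hold no expression, so the cell types could not be checked by marker levels.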

Additional observations from a re-analysis of the deposited data

How the results depend on the processing

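Each of 18 results was recomputed under up to 9 of 10 alternatives, 128 values in all, of which 81 stayed within the counting interval or, for a count of regions, gaps or genes, near the value in the report. A 50% overlap and midpoints in place of summits moved none. No paired analysis was possible because each list pools both libraries of its group, and leaving out a library was impossible for the same reason. The motif search at summits and its 100-base alternative were not run without a genome. With far set at 25 kb there were 1391 far regions in 530 gaps, flanking 85 list genes; at 100 kb there were 487 in 154 gaps, 32 list genes and a median stimulated Treg fold of 11.7. Against genes of any type 140 regions in 77 gaps remained, with 5 list genes: 4.29% were in unstimulated Tconv, 5.0% in Treg without stimulation, 35.7% in stimulated Tconv, 61.4% in stimulated Treg alone and 2.14% in all 4 lists. There, 92.0% of Tconv and 97.0% of Treg stimulated regions lacked an unstimulated counterpart, 63.7% of Treg ones a Tconv counterpart, and 48.6% had a neighbour within 12500 bp.

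With every list limited at the −log10 p of 38.1 that the stimulated Tconv list reaches, 674 far regions remained: of these, 2.08% were in unstimulated Tconv, 2.67% in Treg without stimulation, 52.8% in stimulated Tconv, 46.6% in stimulated Treg alone, 47.3% in both stimulated lists alone and 1.34% in all 4. Of the stimulated ones, 97.2% in Tconv and 98.0% in Treg lacked an unstimulated counterpart, 48.6% in Treg lacked a Tconv one (37.9% of other regions), the median Treg fold was 15.3 and 51.3% had a neighbour. With the 2961 strongest of each list, 367 far regions in 197 gaps remained: 17.4% in unstimulated Tconv, 15.3% in Treg without stimulation, 56.7% in stimulated Tconv, 75.7% in stimulated Treg, 31.9% in stimulated Treg alone and 4.9% in both unstimulated lists alone. Of Treg ones 89.2% lacked an unstimulated and 43.2% a Tconv counterpart, median folds were 17.9 in Tconv and 25.4 in Treg, 35.7% had a neighbour and 38.1% lay at a non-coding gene. Both alternatives keep fewer and stronger regions. A neighbour within 5 kb was found for 38.9% and within 50 kb for 75.4%; 50.6% lay within 10 kb of a non-coding gene. Across these settings the share of far stimulated Treg regions without a Tconv counterpart exceeded that of other regions by 7.73 to 13.8 points. The other regions include gene ends, which had the lowest share in the main setting, and the classes were not compared separately under the alternatives. Each list pools libraries of unknown depth, so a region missing from a list may lie below its threshold, and the limits of the lists differed (lowest −log10 p 13.3 and 15.1 for Tconv and Treg without stimulation, 38.1 and 26.6 with it).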

Other observations

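Far regions were spread unevenly over the chromosomes. Chromosome 10 held 108 of them (14.3% of its 754 p65 regions, 2.42 per Mb of far stretch) and chromosome 15 held 82 (15% of 547, 1.93 per Mb). Chromosome 11, with 1009 p65 regions, had 18 far ones (1.78%), and chromosome 4 had 16 of 717 (2.23%). The X chromosome had 17, at 0.218 per Mb.

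The antigen receptor loci, whose gene segments are not annotated as protein-coding genes, held 9 far regions: 5 in Tcra, 2 in Igh and 2 in Tcrb. The strongest of the 5 in Tcra (chr14:54181026-54183297) lay at joining segments and had 28.0-fold in stimulated Treg and 23.6-fold in stimulated Tconv. In Igh, 1 region had 26.5-fold in stimulated Treg and 10.9-fold in stimulated Tconv, 876.2 kb from the nearer protein-coding gene, and the other stood in both unstimulated lists alone (5.35-fold in Tconv, 7.19-fold in Treg).

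In 5 cases a far region had a protein-coding gene on 1 side only, since it lay at an end of its chromosome.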
